A study of Mus musculus with 6 samples.

Results

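Of the 54532 genes in the table, the 9 described here encode chemokine and chemoattractant receptors: Cxcr4, Ccr1, Ccr2, Cx3cr1, Ccrl2, C5ar1, C3ar1, Fpr1 and Fpr2. They were picked by gene name, with their levels in these libraries already known. The libraries were made from peritoneal macrophages of wild-type male C57BL/6J mice aged 6 to 8 weeks. The cells had been elicited by thioglycolate injection and cultured overnight. The 3 groups were untreated cells (Control), cells given LPS and ATP (Model), and cells given LPS, muscone and ATP (MUS), with 2 libraries each. LPS, a component of the bacterial outer membrane, was given at 500 ng/mL for 5.5 h, and ATP, which triggers the NLRP3 inflammasome in primed cells, at 2 mM for a further 0.5 h. Muscone, a macrocyclic ketone, was added at 50 μM 0.5 h before ATP, so MUS cells had already been under LPS before muscone was given. No library of cells given muscone alone or LPS alone was analysed here. The sources do not say whether the libraries of a group came from separate mice or cultures, so p-values measure only the spread between these samples.

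Chemoattractant receptors are G protein-coupled receptors that let a leukocyte sense a gradient and move along it. Ligand binding releases Gi subunits that drive phosphoinositide 3-kinase, phospholipase C and Rac, after which G protein-coupled receptor kinases and β-arrestins silence and internalize the receptor. On macrophages they cover chemokines (CXCR4, CCR1, CCR2, CX3CR1), complement fragments (C5AR1, C3AR1) and formylated bacterial peptides (FPR1, FPR2), while CCRL2 is an atypical receptor that binds chemerin without signalling itself.

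Model vs. Control asks how LPS and ATP together moved the levels of these receptors. Cxcr4 fell, Ccr1 and Ccrl2 rose, and the 5 other receptors tested did not pass the test. Cx3cr1 had at most 4 fragments in a Model or MUS library and lay below the filter for testing. In MUS vs. Model, none of the 8 receptors tested passed. Because the receptors were named with these values known, the calls describe these libraries and are not independent evidence.

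The start regions of the 3 receptors that passed, of which 1 fell and the others rose, are printed below. A link between these sequences and the levels was not tested. Each runs from 250 bases before to 50 after the transcription start in RefSeq, build GRCm38.p6, and is read 5′ to 3′ along the gene's strand. All 9 receptors had an entry. Capitals mark matches to the motifs searched.
Cxcr4, chr1:128592250-128592549, minus strand: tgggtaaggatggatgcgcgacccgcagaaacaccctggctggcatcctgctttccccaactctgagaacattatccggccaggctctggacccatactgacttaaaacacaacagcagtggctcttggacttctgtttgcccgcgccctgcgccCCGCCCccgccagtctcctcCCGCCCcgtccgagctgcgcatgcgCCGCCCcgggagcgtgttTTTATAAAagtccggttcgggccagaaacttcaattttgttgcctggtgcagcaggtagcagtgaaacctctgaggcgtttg
Ccr1, chr9:123968643-123968942, minus strand: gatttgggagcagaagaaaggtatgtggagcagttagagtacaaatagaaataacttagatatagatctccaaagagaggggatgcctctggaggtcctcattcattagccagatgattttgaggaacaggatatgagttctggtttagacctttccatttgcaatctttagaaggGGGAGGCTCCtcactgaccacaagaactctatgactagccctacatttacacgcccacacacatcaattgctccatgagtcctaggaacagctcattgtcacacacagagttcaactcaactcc
Ccrl2, chr9:111057469-111057768, minus strand: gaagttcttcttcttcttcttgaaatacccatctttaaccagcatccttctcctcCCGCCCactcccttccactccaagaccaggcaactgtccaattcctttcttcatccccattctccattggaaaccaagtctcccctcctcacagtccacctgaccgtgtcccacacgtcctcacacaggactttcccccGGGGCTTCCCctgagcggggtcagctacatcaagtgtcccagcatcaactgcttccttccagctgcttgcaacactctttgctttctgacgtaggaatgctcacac
Both strands of every start region were searched for the NF-κB consensus, given here by its name, and for the AP-1 motif with the letters TGANTCA. They were also searched for the TATA motif, written as TATAAA, and for the promoter element known as the GC box, whose letters on its own strand are GGGCGG. Ccr1 and Ccrl2 each held 1 match to the NF-κB consensus, which 8.46% of all 32841 start regions held, and no other of the 9 receptors held one. Cxcr4 held 3 GC boxes, which 35.7% of start regions held at least once, and the TATA motif on both strands in overlapping letters, which 13.6% held. The Cxcr4 region was 59.3% G and C with 20 CG pairs, against a median of 52.7% and 7 over all start regions, and 26.5% of them had at least as many CG pairs. The Ccr1 region was 44% G and C with 1 CG pair, and that of Ccrl2 was 53% with 6. Of the other receptors, C3ar1 held the AP-1 motif (7.81% of start regions), the TATA motif and a GC box, Fpr1 and Fpr2 held the TATA motif, and Ccr2, Cx3cr1 and C5ar1 held none of the motifs. The RefSeq starts of Ccr2, Cx3cr1 and C5ar1 lay 233, 1583 and 202 bases from the gene start in the deposited table, and those of the other receptors at most 6 bases. Ccrl2 also held 1 GC box. These matches describe letters in the sequence only.

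Levels are given in FPKM (fragments scaled to gene length and library total), so that levels of different genes can be set side by side. The fragments behind each value were recovered from FPKM and gene length, and summed to between 15526321 and 17135442 per library. Model replicate 1 had 24906 genes above 0, against 17406 to 19200 in the other libraries, and the cause was not tested. Of 7 macrophage markers, all were above 1 FPKM in at least 1 library, and their summed level, most of it Lyz2, was between 8426 and 13340 FPKM. The markers did not move together: Fcgr1 passed as higher in Model (18.3 and 7.87 FPKM in Control, 161 and 147 FPKM in Model), Csf1r passed as lower (208 and 272 FPKM, then 83.4 and 100.6 FPKM), and the other 5 did not pass. Markers of B cells, mast cells and mesothelial cells were all below 1 FPKM, and of 6 eosinophil markers 3 (Prg2, Ear6 and Epx) were listed at 0 in every library and the list summed to 1.63 to 4.19 FPKM. A gene passed the test when its difference in log2(FPKM + 1) exceeded 1 in size and limma's p, adjusted by Benjamini-Hochberg over the 9794 genes that averaged at least 1 FPKM, was no higher than 0.05. The differences on this scale understate the change of low genes. In Model vs. Control, 930 genes (9.5%) passed as higher and 545 (5.56%) as lower, and without Control replicate 2 these counts were 1237 and 840. The Control libraries stood apart from each other. Of the genes that passed as higher, 85.9% had a higher level in Control replicate 2 than in Control replicate 1, and of those that passed as lower, 86.1% had a lower one, so that Control replicate 2 lay toward the Model libraries. Whether this library is what its label says was not tested. It enters every Control mean and every difference from Control, and the tests of MUS vs. Model through the estimate of spread shared by all groups. The differences of the 8 receptors tested in Model vs. Control are therefore also given without each Control library. In bulk RNA, fewer cells of a type and less RNA per cell cannot be told apart.

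**Figure D1:**
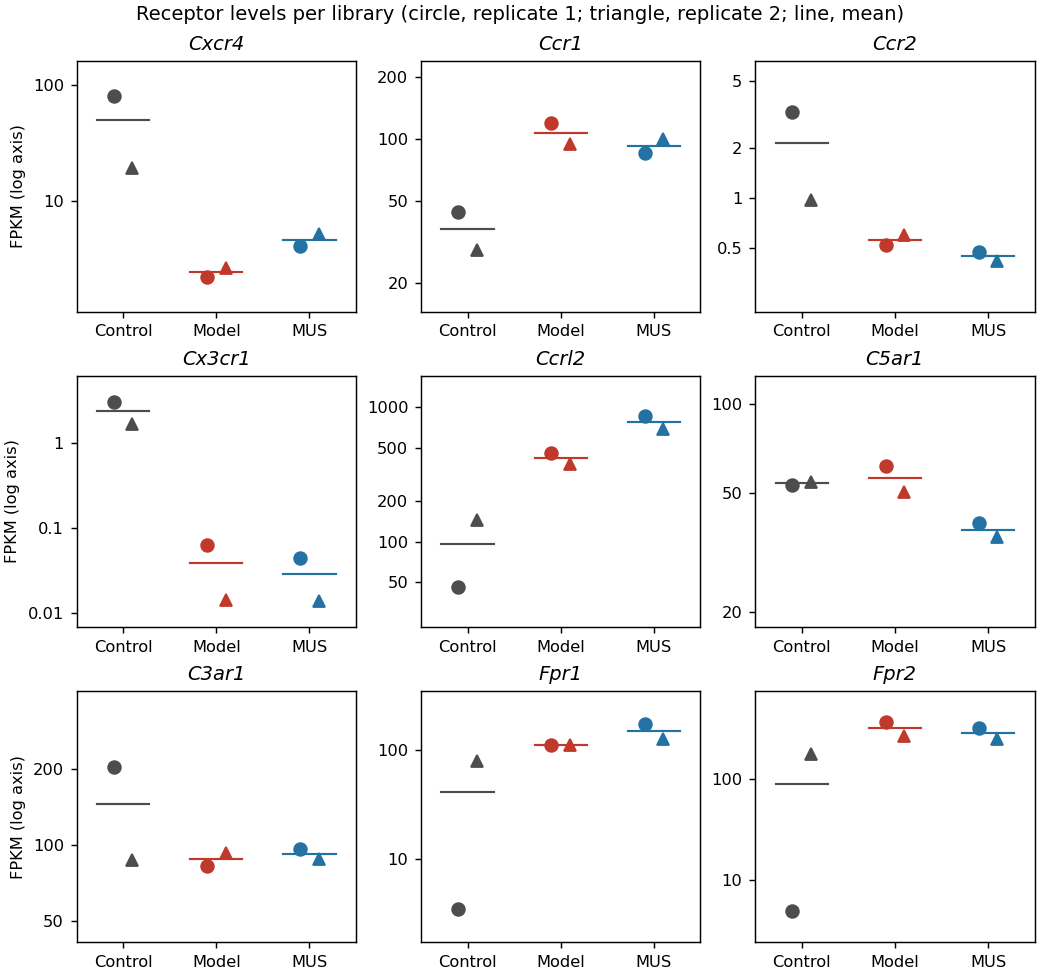
Level of each of the 9 receptors in FPKM on a log axis, with its own range in each panel, for the 2 libraries of Control, Model and MUS and their mean. The Control libraries were farthest apart for Fpr1 and Fpr2. Both Control libraries lay above the other 4 for Cxcr4, Cx3cr1 and Ccr2, and below them for Ccrl2, Ccr1, Fpr1 and Fpr2.

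Cxcr4, the receptor for CXCL12 that retains leukocytes in bone marrow and also binds MIF, was the receptor that fell in Model. Its level was 79.8 and 19.2 FPKM in Control, 2.19 and 2.64 FPKM in Model, and 4.03 and 5.11 FPKM in MUS, from 3297 and 794, 56 and 74, and 110 and 150 fragments. All 4 stimulated libraries lay below both Control libraries, and the MUS libraries lay above the Model libraries. The mean was 49.5 ± 42.8 FPKM in Control and 2.42 ± 0.316 FPKM in Model (SD, n = 2), which is 20.5-fold higher in Control. The difference in mean log2(FPKM + 1) was -3.57 (SE 0.58, 95% interval -4.93 to -2.20, limma adjusted p = 0.00937). The labels give the replicate number as the batch, and within a batch, where each group has 1 library and no test is possible, Cxcr4 was 36.3-fold higher in Control in batch 1 and 7.27-fold higher in batch 2. The difference was -4.57 without Control replicate 2 (adjusted p = 0.000383) and -2.57 without Control replicate 1 (adjusted p = 0.00652), and passed in both cases. Without Model replicate 1, the difference was -3.47 and the adjusted p 0.0652, and with no filter on low genes the adjusted p was 0.0913. Cxcr4 (ENSMUSG00000045382) lies on chromosome 1 at 128588199 to 128592293 on the minus strand (GRCm38), and no 50-base stretch of its transcripts occurred in those of another gene.

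Ccr1, Ccr2, Cx3cr1 and Ccrl2 all lie on chromosome 9. Ccr1 and Ccr2 belong to a run of receptor genes in which Ccr9, Cxcr6, Xcr1, Ccr1, Ccr1l1, Ccr3 and Ccr2 lie in that order. Ccr1 (ENSMUSG00000025804) spans 123962124 to 123968692 on the minus strand, and Ccr2 (ENSMUSG00000049103) spans 124101950 to 124113557 on the plus strand. Ccrl2 (ENSMUSG00000043953, 111054486 to 111057519) and Cx3cr1 (ENSMUSG00000052336, 119901616 to 120069879), both on the minus strand, lie outside this run.

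Ccr1, which binds CCL3, CCL5 and CCL7, rose in Model. It was at 44.4 and 29.1 FPKM in Control, 119.8 and 95.4 FPKM in Model, and 85.9 and 100.3 FPKM in MUS. The stimulated libraries did not overlap those of Control, while Model and MUS overlapped each other. Its mean was 36.7 ± 10.8 FPKM in Control and 107.6 ± 17.2 FPKM in Model (SD, n = 2), a ratio of 2.93, and the difference was 1.55 (SE 0.33, 95% interval 0.77 to 2.32, limma adjusted p = 0.0227). Ccr1 was the only receptor for which Control replicate 2 lay farther from the Model mean than Control replicate 1 did, and its Model to Control ratio was 2.70 in batch 1 and 3.28 in batch 2. It passed without Control replicate 1 (1.84, adjusted p = 0.0239) and without Control replicate 2 (1.25, adjusted p = 0.0390). The call was lost without Model replicate 1 (1.38, adjusted p = 0.0922) and, with the difference still 1.55, without MUS replicate 1 (0.0712) or MUS replicate 2 (0.0708), which enter only through the shared estimate of spread. It was also lost with only the 2 groups fitted (0.070), with no filter (0.0983) and with FPKM rescaled to the fragments on genes of each library (1.01, 0.0569).

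Ccr2, the CCL2 receptor of inflammatory monocytes, was low in every library. It was at 3.28 and 0.976 FPKM in Control, 0.524 and 0.601 FPKM in Model, and 0.480 and 0.419 FPKM in MUS. Its mean of 1.05 FPKM over the 6 libraries met the filter only through Control replicate 1, so a call of Ccr2 as lower is not independent of the filter. The 3 groups did not overlap, but the difference of Model from Control was -0.90 (SE 0.37, 95% interval -1.77 to -0.02, adjusted p = 0.141) and did not pass. It was -1.45 and passed without Control replicate 2 (adjusted p = 0.0118), and was -0.34 without Control replicate 1 (adjusted p = 0.469), so the estimate depended on which Control library was kept. It also passed with voom, limma's test on the recovered fragments (-2.20, adjusted p = 0.0427). Within batches Ccr2 was 6.26-fold higher in Control in batch 1 and 1.62-fold higher in batch 2. Of its 50-base transcript stretches, 1.91% also occurred in another gene. The monocyte marker list, which holds 5 genes, summed to between 1.49 and 4.89 FPKM over the 6 libraries. Only 1 of them, Ly6c2, was tested, and it did not pass (adjusted p = 0.431). Among those not tested, Plac8 was at 0.137 and 0.247 FPKM in Control and 1.87 and 1.18 FPKM in Model, while Treml4 was at 0.701 and 2.25 FPKM in Control and 0.390 and 0.291 FPKM in Model. The part of monocytes in the level of Ccr2 was not tested.

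Cx3cr1, the receptor for the membrane-bound chemokine fractalkine, was at 3.06 and 1.66 FPKM in Control, 0.0629 and 0.0143 FPKM in Model, and 0.0441 and 0.0137 FPKM in MUS. Behind these values were 315 and 171 Control fragments, 4 and 1 Model fragments, and 3 and 1 MUS fragments. Both Control libraries lay above all 4 stimulated libraries. The Control level was 62.9 times that of Model, with a 95% interval of 26.8 to 195, and 83.3 times that of MUS, with an interval of 32.3 to 307. These are exact intervals of fragments summed over a group and cover counting error only. Within batches the Control level was 48.6 and 115.8 times that of Model. With a mean of 0.809 FPKM over the 6 libraries, Cx3cr1 was below the filter and was not tested. Under the rescaling to fragments on genes it met the filter only through the Control libraries, where it was high. In that setting it passed, with a difference of -2.01 (limma adjusted p = 0.00834), a call that is not independent of the filter. With no filter it did not pass (-1.66, adjusted p = 0.0754). The Cx3cr1 interval overlaps 9 other annotated genes, but 1.06% of its transcript stretches were shared with another gene.

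Ccrl2, the atypical chemerin receptor, rose in Model and was the highest of the 9 receptors in Model and MUS. Its level was 46.2 and 144.4 FPKM in Control, 456 and 379 FPKM in Model, and 857 and 696 FPKM in MUS. The 3 groups did not overlap, with MUS above Model and Model above Control. The mean was 95.3 ± 69.4 FPKM in Control and 417 ± 53.9 FPKM in Model (SD, n = 2), a ratio of 4.38, and the difference was 2.33 (SE 0.55, 95% interval 1.04 to 3.62, limma adjusted p = 0.0300). Within batches the Model to Control ratio was 9.86 and 2.63, and without Control replicate 2 the difference was 3.14 (adjusted p = 0.00256). The call was lost without Control replicate 1 (1.52, adjusted p = 0.0565), without Model replicate 1 (2.20, 0.124) or Model replicate 2 (2.46, 0.0733), and, at an unchanged 2.33, without MUS replicate 1 (0.0746) or MUS replicate 2 (0.0749). With only the 2 groups fitted and with no filter, the adjusted p was 0.0722 and 0.169.

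Neither complement receptor passed the test. C5ar1, the receptor for the anaphylatoxin C5a, was at 53.3 and 54.7 FPKM in Control, 61.9 and 50.6 FPKM in Model, and 39.7 and 35.6 FPKM in MUS. Model overlapped Control, and both MUS libraries lay below the other 4. The difference of Model from Control was 0.05 (SE 0.27, 95% interval -0.59 to 0.69, adjusted p = 0.912), and its sign turned under the rescaling to fragments on genes (-0.49) and without Model replicate 1 (-0.09). It was 0.03 without Control replicate 1 and 0.07 without Control replicate 2. C3ar1, the receptor for C3a, was at 203.9 and 87.5 FPKM in Control, 82.8 and 92.9 FPKM in Model, and 96.5 and 88.1 FPKM in MUS. Control replicate 1 stood alone, and the other 5 libraries lay between 82.8 and 96.5 FPKM. The difference was -0.60 (SE 0.43, 95% interval -1.62 to 0.42, adjusted p = 0.361). It was -1.21 without Control replicate 2 (adjusted p = 0.0365) and 0.00 without Control replicate 1 (adjusted p = 0.997), so a single Control library decided the call. Within batches the Model to Control ratio was 1.16 and 0.924 for C5ar1 and 0.406 and 1.06 for C3ar1. C5ar1 (ENSMUSG00000049130) lies on chromosome 7 at 16246743 to 16259540 and C3ar1 (ENSMUSG00000040552) on chromosome 6 at 122847138 to 122856161, both on the minus strand, and neither shared a 50-base stretch with another gene.

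The formyl peptide receptors had the widest gap between the Control libraries. Fpr1, which binds formylated peptides from bacteria and mitochondria, was at 3.47 and 80.1 FPKM in Control, 113.2 and 112.9 FPKM in Model, and 175.5 and 127.8 FPKM in MUS. Fpr2, which also binds annexin A1 and serum amyloid A, was at 4.89 and 173.6 FPKM in Control, 364 and 261 FPKM in Model, and 318 and 244 FPKM in MUS. For both genes every stimulated library lay above both Control libraries. Control replicate 2 was 23.1-fold above Control replicate 1 for Fpr1 and 35.5-fold for Fpr2, and on the log2(FPKM + 1) scale it lay 89.5% and 85.6% of the way from Control replicate 1 to the Model mean. The difference of Model from Control was 2.58 for Fpr1 (SE 1.15, 95% interval -0.14 to 5.30, adjusted p = 0.166). For Fpr2 it was 3.27 (SE 1.34, 95% interval 0.09 to 6.44, adjusted p = 0.140), and neither passed. Without Control replicate 2 both passed, at 4.67 (adjusted p = 0.000542) and 5.71 (adjusted p = 0.000392), with the lone Control library assumed to vary like the other groups. Without Control replicate 1 the differences were 0.49 (adjusted p = 0.442) and 0.82 (adjusted p = 0.267). Within batches, the Model to Control ratio of Fpr1 was 32.6 in batch 1 and 1.41 in batch 2, and that of Fpr2 was 74.3 and 1.5.

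Fpr1 and Fpr2 are divergent neighbours on chromosome 17, with Fpr1 (ENSMUSG00000045551) at 17876471 to 17883940 on the minus strand and Fpr2 (ENSMUSG00000052270) at 17887824 to 17893952 on the plus strand, 3883 bases apart. Of the 50-base transcript stretches of Fpr2, 31.5% also occurred in another gene, 28.4% in Gm5966, which was not analysed here, so the level of Fpr2 is uncertain. For Fpr1 this share was 0.0784%. Fpr3, which overlaps Fpr2 on the same strand, had between 0 and 9 fragments per library. Neutrophils carry these receptors in abundance, so the neutrophil markers are given beside them. Of 9 neutrophil markers, 7 were below 1 FPKM in all 6 libraries, and S100a9, Elane, Ly6g and Retnlg were listed at 0 in all 6. The summed level of the list was 13.8 and 30.9 FPKM in Control, 112 and 57.7 FPKM in Model, and 64.6 and 50.8 FPKM in MUS. Nearly all of it came from S100a8, the only marker tested, which passed as higher in Model.

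Of the 8 receptors tested, 2 passed as higher and 1 as lower in Model vs. Control, beside 9.5% and 5.56% of all genes, from which nothing is read because the receptors were picked with these values known. For 4 receptors the Model libraries lay above both Control libraries, as for 32.6% of genes, and for 2 they lay below, as for 28.5%. Without Control replicate 2, 7 of the 8 receptors passed, beside 2077 of all 9794 genes, and without Control replicate 1, 2 receptors passed (Cxcr4 and Ccr1), beside 763 genes. Leaving out a Model or a MUS library also lost calls, among the receptors and over all genes alike. The plot of estimates by Control library shows the spread between the Control settings for each receptor. The scale of the deposited values also differed between libraries. In Control, the FPKM per fragment implied a total 1.45 and 1.34 times the fragments on genes, against 0.909 to 0.998 times in the other libraries. Rescaled to fragments on genes, the median difference over all genes was -0.42 in place of 0.04, and 28.4% of the genes that passed in Model vs. Control were higher, in place of 63.1%. Relative to that median, the differences were -3.66 for Cxcr4, 1.43 for Ccr1, 2.21 for Ccrl2 and -0.07 for C5ar1.

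**Figure D2:**
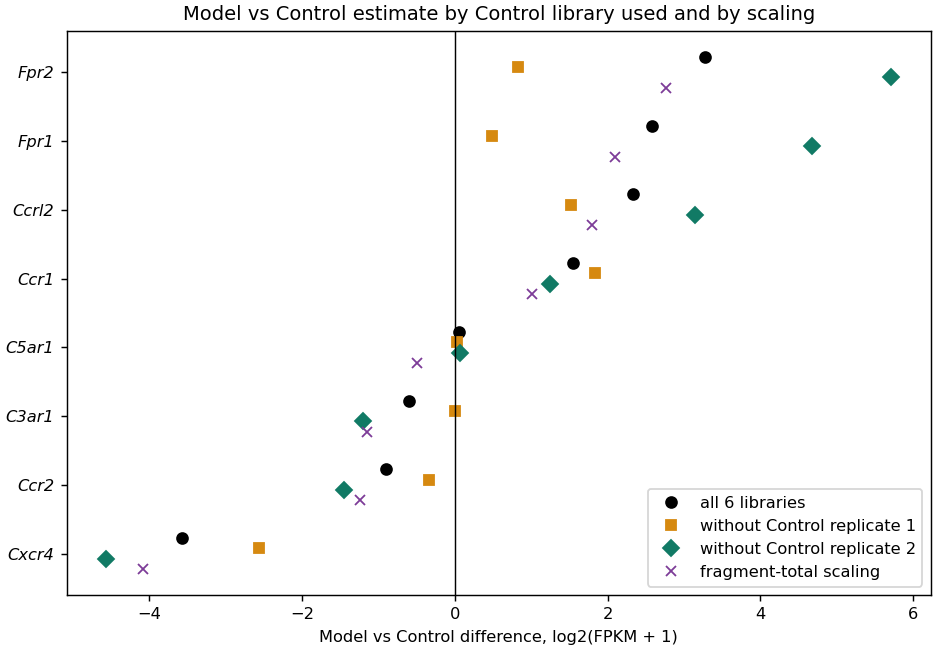
Difference of Model from Control in mean log2(FPKM + 1) for the 8 receptors tested, with all 6 libraries, without either Control library, and with FPKM rescaled to the fragments on genes. The estimates for Fpr1 and Fpr2 ran from under 1 without Control replicate 1 to above 4 without Control replicate 2. These receptors and Cxcr4, Ccr1, Ccrl2 and Ccr2 kept their direction in each of these settings, while C5ar1 and C3ar1 did not.

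The order of the levels differed between resting and stimulated cells. In Control, C3ar1 had the highest mean level, followed by Ccrl2, Fpr2, C5ar1, Cxcr4, Fpr1 and Ccr1, and every pair of neighbours in that order overlapped between libraries. Cx3cr1 and Ccr2 came last, and both lay below Ccr1 without overlap. In Model the order was Ccrl2, Fpr2, Fpr1, Ccr1, C3ar1, C5ar1, Cxcr4, Ccr2 and Cx3cr1, and among neighbours only Fpr1 and Ccr1 overlapped. The order was the same in MUS, where only Ccr1 and C3ar1 overlapped.

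MUS vs. Model asks whether muscone, added after LPS and before ATP, moved receptor levels in cells given both. No gene passed the limma test in either direction (0.0% of 9794 genes higher and 0.0% lower), and 0 of the 8 receptors did. At an unadjusted p under 0.05 in this fit there were 825 genes and 0 receptors, and voom on recovered fragments also called 0 genes. An exact permutation test of 2 against 2 libraries cannot give a p below 0.333. The widest differences among the receptors were those of Ccrl2 and Cxcr4. The MUS mean of Ccrl2 was 776 ± 114 FPKM (SD, n = 2), 1.86 times that of Model, with a difference of 0.89 (95% interval -0.40 to 2.18, adjusted p = 0.729). The MUS to Model ratio of Ccrl2 was 1.88 in batch 1 and 1.83 in batch 2. Cxcr4 had a MUS mean of 4.57 ± 0.765 FPKM (SD, n = 2), 1.89 times that of Model, with a difference of 0.70 (95% interval -0.66 to 2.06, adjusted p = 0.805). The ratio was 1.83 in batch 1 and 1.93 in batch 2. C5ar1 had the lowest unadjusted p of the 8 in this fit, whose spread is shared with Control. Its MUS mean was 37.7 ± 2.88 FPKM against 56.2 ± 7.98 FPKM in Model (SD, n = 2), a ratio of 0.670 (0.642 in batch 1 and 0.704 in batch 2). The difference was -0.56 (95% interval -1.20 to 0.08, limma adjusted p = 0.660). With only the 2 groups fitted, limma's adjusted p was 0.472 for Ccrl2 and for Cxcr4 and 0.568 for C5ar1, and no receptor passed. The differences of the other 5 receptors were 0.40 for Fpr1 (95% interval -2.32 to 3.12), -0.20 for Ccr1 (-0.98 to 0.58), -0.15 for Fpr2 (-3.32 to 3.03), -0.11 for Ccr2 (-0.98 to 0.77) and 0.07 for C3ar1 (-0.95 to 1.09). The MUS libraries lay above both Model libraries for 3 receptors (Ccrl2, Fpr1 and Cxcr4), as for 21.2% of genes, and below both for 2 (C5ar1 and Ccr2), as for 21.0%. The intervals of Fpr1 and Fpr2 thus reached from over 2 below 0 to over 3 above it on the log2 scale. The gap between their Control libraries enters this width through the estimate of spread shared by all groups. With only the 2 groups fitted, the SE was 0.27 in place of 1.15 for Fpr1 and 0.31 in place of 1.34 for Fpr2.

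**Figure D3:**
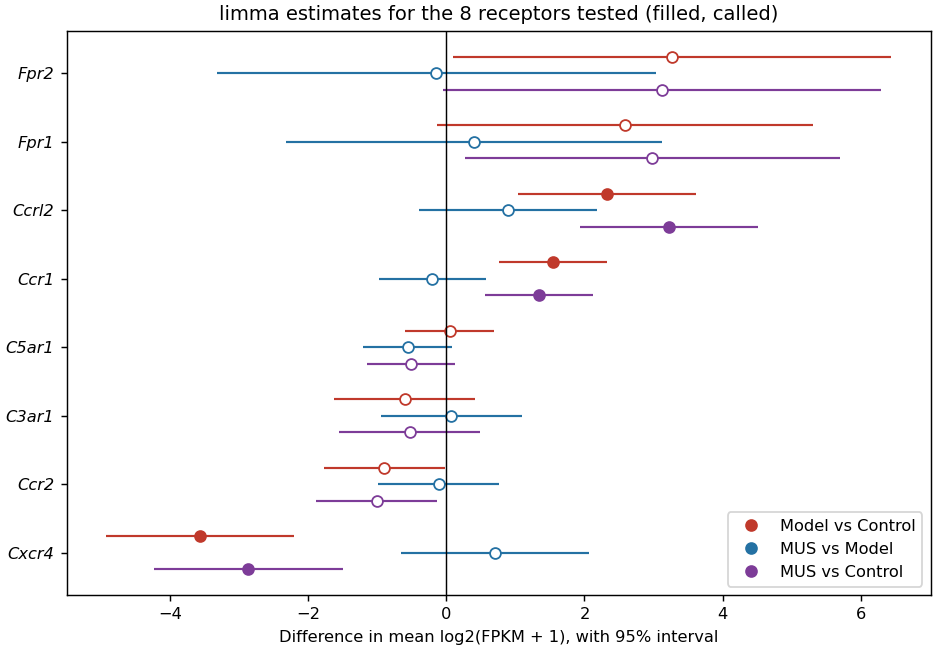
Difference in mean log2(FPKM + 1) with its 95% interval from limma for the 8 receptors tested in Model vs. Control, MUS vs. Model and MUS vs. Control, where filled points passed the test. Cxcr4 lay below 0 and Ccr1 and Ccrl2 above 0 in both comparisons with Control, and every interval of MUS vs. Model included 0.

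MUS vs. Control sets all of the treatments against untreated cells, and shares its Control libraries with Model vs. Control and its MUS libraries with MUS vs. Model. Of all genes, 11.3% passed as higher and 8.91% as lower, so 55.9% of the genes that passed were higher, against 26.7% with FPKM rescaled to the fragments on genes and 24.1% with voom. Ccrl2 rose by 3.22 (SE 0.55, adjusted p = 0.00849), Ccr1 rose by 1.34 (SE 0.33, adjusted p = 0.0277), and Cxcr4 had a difference of -2.87 (SE 0.58, adjusted p = 0.0148). The calls of Ccrl2, Ccr1 and Cxcr4 were all lost without MUS replicate 1 (adjusted p of 0.0911, 0.163 and 0.115) and without MUS replicate 2 (0.0541, 0.171 and 0.071), and that of Ccr1 also without Control replicate 2 (1.05, adjusted p = 0.0585). The differences of the receptors that did not pass were 2.99 for Fpr1 (adjusted p = 0.10), 3.12 for Fpr2 (0.131), -1.01 for Ccr2 (0.0895), -0.51 for C5ar1 (0.206) and -0.53 for C3ar1 (0.393). Without Control replicate 2, Fpr1 (5.08), Fpr2 (5.57), Ccr2 (-1.56) and C3ar1 (-1.14) passed as well. Without Control replicate 1, these 4 did not pass, with differences of 0.89 for Fpr1 (adjusted p = 0.142), 0.68 for Fpr2 (0.299), -0.45 for Ccr2 (0.287) and 0.075 for C3ar1 (0.896). Cxcr4 and Ccrl2 passed without either Control library, at -1.87 and 2.41 without Control replicate 1 and at -3.87 and 4.03 without Control replicate 2. With voom, Ccr1 did not pass (0.83, adjusted p = 0.0756), and Ccr2 (-2.51, adjusted p = 0.0276) and C5ar1 (-1.06, adjusted p = 0.0143) did. Rescaled to the fragments on genes, Ccr1 no longer passed (0.82, adjusted p = 0.0919), while Ccr2 (-1.35, adjusted p = 0.0456), C5ar1 (-1.04, adjusted p = 0.0185) and Cx3cr1 (-2.03, adjusted p = 0.00586) did. Of these, Ccr2 and Cx3cr1 met the filter only through Control.

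The other genes of this system were described from 4 lists. Of 18 other chemokine receptors, 17 were below the filter, and Ccr7 was tested and passed as higher in Model (9.5% of all genes did). It met the filter only through the stimulated libraries, where it was high, so this call is not independent of the filter. Ccr7, which guides cells to lymph nodes, was at 0.398 and 0.884 FPKM in Control, 5.02 and 5.71 FPKM in Model, and 3.71 and 6.50 FPKM in MUS. Control lay below the other 4 libraries, and Model and MUS overlapped. Its difference in Model vs. Control was 1.97 (SE 0.29, adjusted p = 0.00683). Of 6 dendritic cell markers, which include Ccr7, no other was tested. The list summed to 1.52 and 2.5 FPKM in Control, 7.24 and 7.33 FPKM in Model, and 5.82 and 8.35 FPKM in MUS, most of it Ccr7 in the stimulated libraries. Xcr1 was at 0.118 and 0.0982 FPKM in Control and 1.24 and 0.652 FPKM in Model, and Zbtb46 and Flt3 were also higher in both Model libraries. Cd209a was lower in both (0.746 and 1.10 FPKM in Control, 0.403 and 0.408 FPKM in Model), and Clec9a overlapped between Control and Model. Of 7 T and innate lymphocyte markers 6 stayed below 1 FPKM. Lck, which met the filter only through the stimulated libraries, was at 0.0448 and 0.134 FPKM in Control and 2.85 and 1.37 FPKM in Model and passed as higher (1.47, limma adjusted p = 0.0183). The part of such cells in the level of Ccr7 was not tested. Of 14 other chemoattractant receptors, 4 were tested (Ptafr, Cmklr1, Cysltr1 and Gpr183) and 0 passed, with a median difference of -0.17 against 0.04 over all genes. Cmklr1, the signalling chemerin receptor, had a difference of -0.34 (SE 0.58, adjusted p = 0.708).

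Of 17 ligands of these receptors, 12 were tested, of which 6 passed as higher in Model and 1 as lower, beside 9.5% and 5.56% of all genes, with a median difference of 3.54 against 0.04 over all genes. Ccl12, which passed as higher, was at 0 and 0.407 FPKM in Control and 44.3 and 19.0 FPKM in Model. It met the filter only through the stimulated libraries, as did Ccl8, which did not pass. The count and the median are thus not independent of the filter. Ccl7, a ligand of CCR1 and CCR2, was at 3.71 and 11.95 FPKM in Control, 1571 and 891 FPKM in Model, and 925 and 771 FPKM in MUS. Ccl2, the main CCR2 ligand, was at 5.92 and 19.4 FPKM in Control, 1399.9 and 684 FPKM in Model, and 894 and 598 FPKM in MUS. Both rose beyond any overlap, by 7.24 for Ccl7 (SE 0.54, adjusted p = 0.00107) and 6.37 for Ccl2 (SE 0.60, adjusted p = 0.00201), whereas the level of Ccr2 itself stayed under 1 FPKM in every stimulated library. Ccl3 and Ccl5, ligands of CCR1, rose by 5.06 (SE 0.81, adjusted p = 0.00922) and 5.66 (SE 1.25, adjusted p = 0.0255). The call of Ccl3 was lost without Model replicate 1 (0.0651), and that of Ccl5 without Model replicate 1 (0.124), Model replicate 2 (0.0747), MUS replicate 1 (0.0600) or MUS replicate 2 (0.0596). Mif, the alternative CXCR4 ligand, was at 53.6 and 31.0 FPKM in Control, 15.3 and 11.96 FPKM in Model, and 6.66 and 13.4 FPKM in MUS. It fell by 1.52 (SE 0.40, adjusted p = 0.0414), and its call was lost without any 1 of 5 libraries, Control replicate 2 being the exception (adjusted p between 0.0639 and 0.187). It was also lost with a pseudocount of 0.1 (0.0521) and with only the 2 groups fitted (0.0687). Cxcl12, Cx3cl1 and Rarres2, the genes of CXCL12, fractalkine and chemerin, were below the filter in these cells. In MUS vs. Model 0 ligands passed, 9 of 12 had a lower mean, and the median difference was -0.42 against 0.01 over all genes.

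Of 24 genes for signalling and desensitisation below these receptors, 22 were tested, of which 0 passed as higher and 5 as lower in Model, beside 9.5% and 5.56% of all genes. Of these 5, Arrb1 and Plcb2 met the filter only through Control, so the count is not independent of the filter. Plcb2 was at 3.22 and 1.87 FPKM in Control and 0.451 and 0.675 FPKM in Model. Arrb1, which encodes β-arrestin 1, was at 7.34 and 8.33 FPKM in Control, 0.317 and 0.479 FPKM in Model, and 0.391 and 0.309 FPKM in MUS. Its Control libraries lay far above the other 4, and through them alone it met the filter. It fell by 2.66 (SE 0.21, limma adjusted p = 0.00126) and also passed with no filter (adjusted p = 0.0256). Arrb2, for β-arrestin 2, fell by 1.57 (SE 0.25, adjusted p = 0.00905). Dock2, a Rac activator needed for chemokine-driven migration, fell by 1.60 (SE 0.33, adjusted p = 0.0196), and Gng2, a G protein γ subunit, by 1.52 (SE 0.26, adjusted p = 0.0111). The call of Gng2 was lost without Control replicate 1 (0.0620) or Model replicate 1 (0.0590), and that of Dock2 without Control replicate 1 (0.0973), Model replicate 1 (0.0717), MUS replicate 1 (0.0548) or MUS replicate 2 (0.0550). The median difference of the list was 0.14, and 12 of the 22 genes had a higher mean in Model. None passed in MUS vs. Model.

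**Figure D4:**
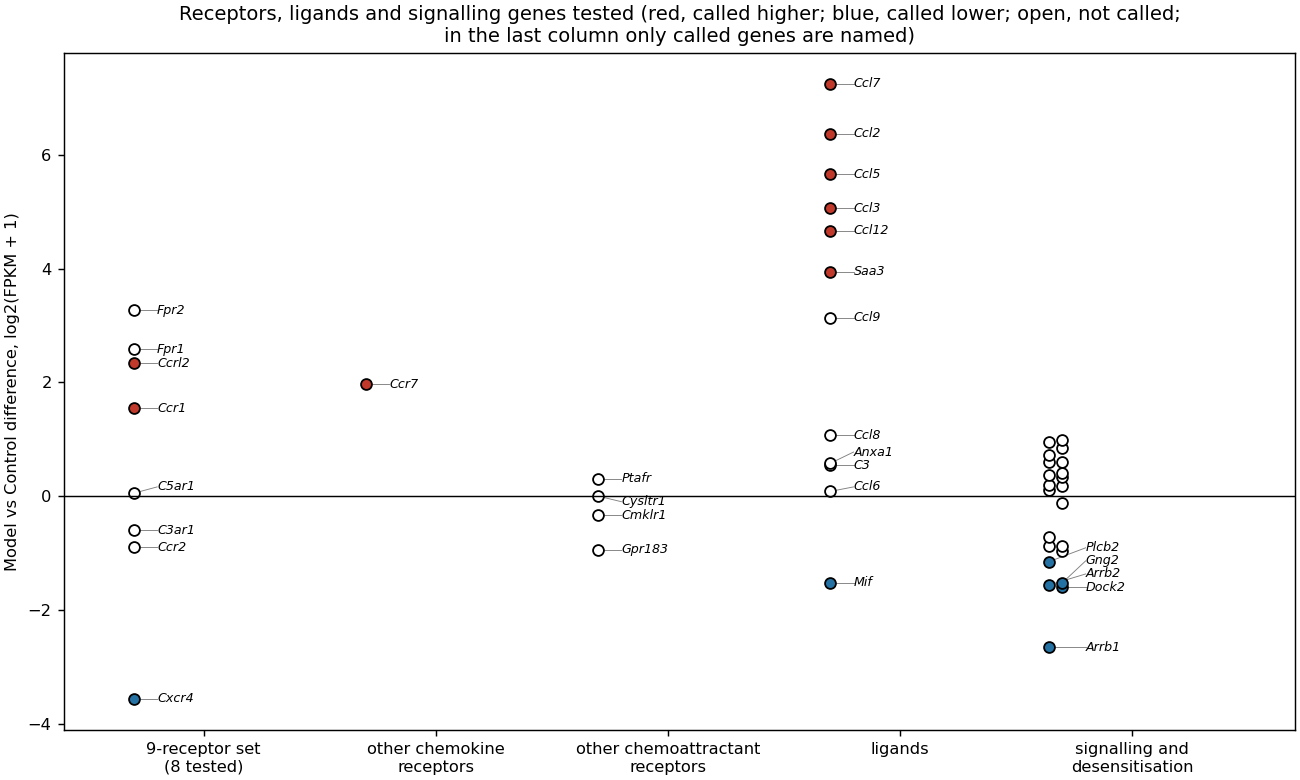
Difference of Model from Control in mean log2(FPKM + 1) for the 8 receptors tested and the tested genes of the 4 lists, with genes that passed as higher in red, as lower in blue and the others open. The ligands reach 7.24 (Ccl7), above every receptor, and the 5 signalling genes that passed all lie below -1.

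The genes whose log2(FPKM + 1) followed Cxcr4 most closely over the 6 libraries were Pnpla7 (Pearson r = 0.999), Crot (0.997), Bcas3 (0.997), Dlg3 (0.997) and Gstm1 (0.997). Pnpla7 was at 16.1 and 6.22 FPKM in Control, 1.37 and 1.70 FPKM in Model, and 2.07 and 2.35 FPKM in MUS. Like Cxcr4, it was highest in Control replicate 1 and lowest in Model. For Ccrl2 they were Osgin2 (0.997), Tgs1 (0.996), Smad2 (0.996), Mak16 (0.996) and Acsl5 (0.995). Osgin2 was at 3.95 and 7.84 FPKM in Control, 17.3 and 16.7 FPKM in Model, and 28.4 and 22.7 FPKM in MUS, with the same order of libraries by group as Ccrl2. With 3 groups of 2 libraries, such values mostly describe the order of the groups and are given without a test.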

How the data were processed

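RNA-seq was performed on 3 groups of peritoneal macrophages with 2 libraries each. The authors deposited one table of FPKM. The methods name RSEM, whereas the submitters' processing notes name HISAT2, featureCounts 1.5.0-p3 and GRCm39. Gene positions in the table were those of GRCm38, where GENCODE M21 gave the same coordinates for 98.3% of the 54409 identifiers found in both. FPKM times gene length was a whole multiple of 1 step in 100% of values within a tolerance of 0.1 step, so fragments per gene were recovered. Intervals from them cover counting error only, and 3 fragments on a gene of 1 kb correspond to 0.131 to 0.213 FPKM. Whether the counting used strand is not given in the sources used here.

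Groups and replicates came from the sample labels. limma 3.58.1 in R 4.3.3 (lmFit, contrasts.fit, eBayes with a trend, two-sided) was fitted to log2(FPKM + 1) of genes with a mean of at least 1 FPKM, with all 6 libraries in 1 model of 3 groups (3 residual and 4.04 prior degrees of freedom). Genes passed with a Benjamini-Hochberg adjusted p no higher than 0.05 and a log2 difference over 1 in size, the thresholds of the study. The fit was tested on simulated data. The replicate number is the batch of the labels, so it pairs the libraries. Differences between replicates 1 and 2 correlated across genes between Control and Model (r = 0.12), between Model and MUS (0.14) and between Control and MUS (-0.09). The pairing entered as an alternative, beside other scalings, pseudocount and filter, voom, 2-group fits and each library left out. Shared sequence was sought as 50-base stretches of transcripts. Tables were made in Python 3.11.15 with pandas 2.3.3, NumPy 2.4.6, SciPy 1.17.1 and Matplotlib 3.10.9.

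The receptors, gene lists and rules were chosen with earlier results of these data known. The genes named are the 9 receptors, of each list at most 4 genes per direction that passed in Model vs. Control, and the 5 genes most like Cxcr4 and Ccrl2. Other listed genes, and the markers, were named after their values were seen. In the lists, 1 gene is not reported here.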

Additional observations from a re-analysis of the deposited data

How the results depend on the processing

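With 2 libraries per group, most calls rest on a spread estimated from few values. In Model vs. Control, 1475 genes passed, against 260 with no filter, 2280 with FPKM rescaled to the fragments on genes, 2734 with voom, 797 with only the 2 groups fitted, and 692 to 2077 with 1 library left out. The receptors that passed numbered 3, against 0 with no filter, where 30192 genes were tested, 1 with only the 2 groups fitted, and 0 to 7 with 1 library left out. In MUS vs. Model, 0 genes passed, against 1 with a pseudocount of 0.1, 7 with only the 2 groups fitted, 4 with the replicate block, and 0 to 31 with 1 library left out, the 31 without Model replicate 2. None of these was a receptor. In MUS vs. Control, 1980 genes passed, against 456 with no filter, 3144 with voom, and 184 to 2398 with 1 library left out, and 3 receptors passed, against 0 with no filter, 5 with FPKM rescaled and 0 to 6 with 1 library left out. The replicate block, which pairs libraries by batch, changed no call of a receptor in any comparison, and median-ratio scaling and the pseudocount of 0.1 changed none either. Ccl12 and Plcb2 were not followed through these settings. Of the other genes named from the 4 lists as passing in Model vs. Control, Arrb1, Ccl2 and Ccl7 passed in every setting. With no filter, the calls of Arrb2 (limma adjusted p = 0.0639), Ccr7 (0.0694), Gng2 (0.0824), Ccl3 (0.101), Dock2 (0.114), Ccl5 (0.166) and Mif (0.180) were lost. With only the 2 groups fitted, those of Ccl5 (0.0597), Dock2 (0.0556) and Mif (0.0687) were lost.

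Signs turned in 3 receptors (C5ar1, C3ar1 and Fpr2), and no value with a turned sign passed the test. Each of the 3 did pass in some setting of a comparison with Control, with the sign of the main fit. In Model vs. Control, C5ar1 had a difference of 0.05, against -0.49 with FPKM rescaled, -0.50 with voom and -0.093 (without Model replicate 1) to 0.19 with 1 library left out, and C3ar1 had -0.60, against -1.21 to 0.0035 (without Control replicate 1) with 1 left out. In MUS vs. Model, C3ar1 had 0.07, against -0.011 (without Model replicate 1) to 0.15, and Fpr2 had -0.15, against -0.39 to 0.092 (without Model replicate 1), and 0.045 without MUS replicate 2. In MUS vs. Control, C3ar1 had -0.53, against -1.14 to 0.075 (without Control replicate 1). The cause was not tested. Depth limits Cx3cr1 most, with 1 to 4 fragments in each stimulated library.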
